A study of Danio rerio with 1152 samples.

Results

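The cytosolic ribosomal protein genes of the zebrafish (Danio rerio) late blastula are described here in single cells. They were taken as every row of the count table whose symbol is RPL, RPS or RPLP followed by a digit, without the RPS6K kinases, whose 6 rows were left out. This rule used no measured value and gave 80 of the 13902 genes, 47 of the large subunit (RPL and RPLP) and 33 of the small subunit (RPS). Genes of ribosomal proteins with symbols outside the rule, such as RPSA and GNB2L1, are used below as partners.

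Wild-type TL/AB in-cross embryos were grown to 50% epiboly, about 6 hours after fertilization, and cells of the dissected blastoderm cap were picked by hand into 1152 wells. The labels give 1 kind of group, the experimental batch, with 3 batches of equal size, and name plates 5, 6, 7 and 8 for batch 1. They name no mutant allele and no treatment, and leave the number of embryos per batch unstated. Batches serve as replicates (n = 3) in what follows, since single cells of a batch share their source.

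Each ribosome carries a set of these proteins, most of them as a single copy, while the stalk proteins P1 and P2 are present in more than 1. In vertebrates their mRNAs begin with a pyrimidine-rich start, the TOP motif, through which translation of the whole family is controlled together. Maternal ribosomes serve the early fish embryo, and the zygotic genome, ribosomal protein genes included, has become active before gastrulation.

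Wells with 2000 or more detected genes were kept, which left 1000 cells, or 90.36%, 77.08% and 92.97% of the wells of batches 1, 2 and 3. Their median totals were 57293, 55922.5 and 35746 UMIs (unique molecular identifiers, the random tags by which copies of 1 cDNA molecule are counted once), and totals ranged between 5307 and 132749. A total of 39 kept wells had over 5000 detected genes. A well in batch 1 and a well in batch 2 agreed within sampling noise (chi-square per degree of freedom 0.5003, against 1.091 or more in the next 19 pairs). Levels are UMIs per 10000 UMIs, pooled over the cells of a batch. Since 1 end of each transcript, the 5′ end, was sequenced and tags were counted, a level counts molecules and is not divided by transcript length.

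As a family the members were abundant but very uneven. Their median level was 4.35 UMIs per 10000, against 0.0809 for all genes in the table, and the highest member stood 1076 times above the lowest. The large subunit median was 4.24 and the small subunit median 5.16. The 5 highest members held 23.9% of all member UMIs and the 10 highest held 37.3%. In all, 11 members exceeded 10 UMIs per 10000 and 11 stayed under 1. The highest ranked 24 among all genes, and 6 of the 100 most abundant genes were members.

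RPL11, a large subunit protein that binds 5S rRNA and in mammals also the p53 regulator MDM2, was the highest member. It stood at 26.09, 24.63 and 28.70 UMIs per 10000 in batches 1, 2 and 3 (mean 26.5 ± 2.06, SD, n = 3). RPS20, a protein of the small subunit head, followed at 24.41, 23.86 and 29.51 (mean 25.9 ± 3.12). These top members did not differ beyond their spread, and RPL11 led RPS20 in batches 1 and 2 but not in batch 3.

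The small subunit protein RPS9, which contributes to decoding accuracy, came next with 18.62, 17.27 and 21.33 UMIs per 10000. RPS12 had 15.45, 15.40 and 19.68, and RPL32 had 14.80, 15.56 and 18.28. These levels overlapped between RPS12 and RPL32, while RPS9 stood above both within each batch. RPL39, a small protein that lines the exit tunnel of the nascent chain, had 14.61, 12.21 and 16.49. RPL19 had 10.84, 10.72 and 12.90, and RPS13 had 10.72, 9.004 and 13.55. RPS28, a small subunit protein near the mRNA exit channel, was at 10.75, 10.75 and 10.59. Among these 3 genes the batch values overlapped, so their order was not resolved.

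At the other end, RPS8B was close to absent, with 0.0208, 0.0273 and 0.0257 UMIs per 10000 in batches 1, 2 and 3. It was detected in 6.9% of kept cells. RPL27A stood at 0.178, 0.249 and 0.161, and RPL37 at 0.432, 0.283 and 0.324. RPL27 had 0.346, 0.315 and 0.409, and RPL35 had 0.362, 0.295 and 0.493. The last 3 overlapped between batches. Other low members were RPS26L (mean 0.422), RPS25 (0.574), RPS7 (0.684), RPL5A (0.746), RPS10 (0.795) and RPLP2 (0.997). How the authors treated reads that match several copies of a gene is not given in the sources used here, so a low count of a member with a near-identical copy or pseudogene is uncertain.

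**Figure D1:**
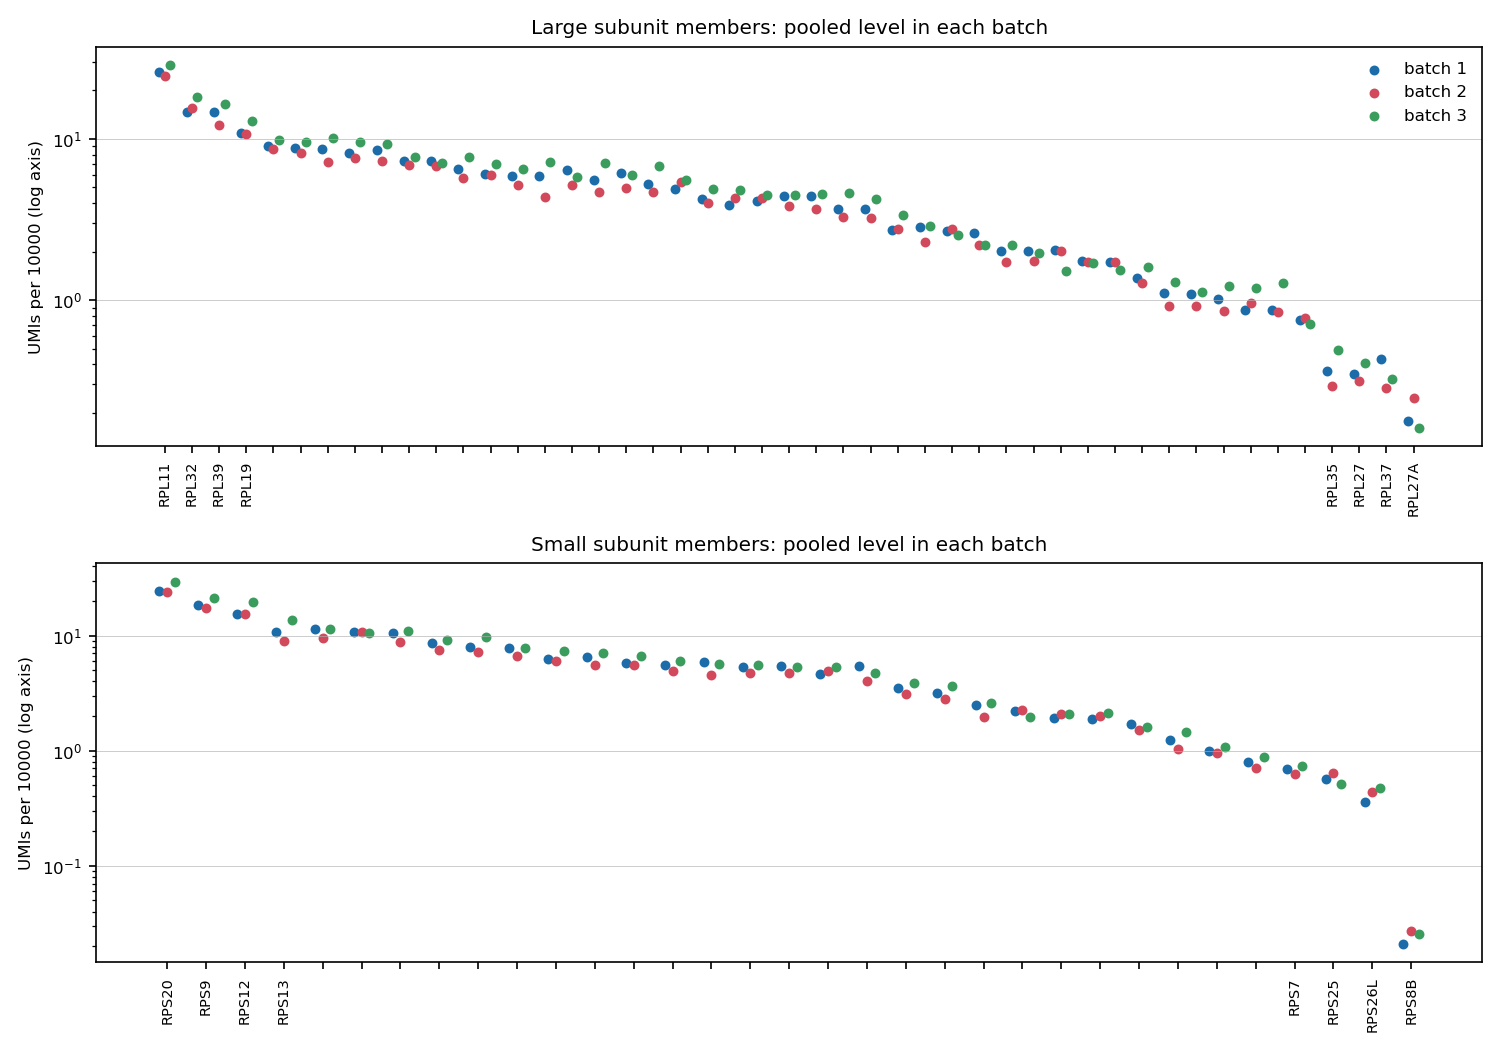
Pooled level of each member in UMIs per 10000 (log axis), large subunit above and small subunit below, ordered by mean level, with 1 point per batch and the names of the 4 highest and 4 lowest of each subunit. Batches 1, 2 and 3 lie close together for each gene, while genes spread between 0.0246 (RPS8B) and 26.5 (RPL11) in mean level.

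The order of the members was nearly the same in every batch, with Spearman correlations of level across the 80 genes of 0.992 (batches 1 and 2), 0.992 (1 and 3) and 0.989 (2 and 3). These describe genes, which are not independent replicates. In a single cell a median of 69 members had at least 1 UMI, with 39 and 80 as extremes. A UMI was found in 95% or more of cells for 49 members and in every kept cell for 5, RPL11, RPS20, RPS9, RPS12 and RPL32. Another 7 members, RPS25, RPS26L, RPL35, RPL27, RPL37, RPL27A and RPS8B, were found in under 50% of cells.

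Several ribosomal proteins have a pair of genes in the table, and mostly 1 gene of the pair dominated. RPS8A made 99.67%, 99.55% and 99.65% of the pooled UMIs of RPS8A and RPS8B in batches 1, 2 and 3. RPS26 made 93.84%, 91.53% and 91.84% of its pair with RPS26L. RPL5B, which like RPL11 binds 5S rRNA, made 89.43%, 86.96% and 89.07% of its pair with RPL5A. These 3 pairs held nearly the same split in each batch.

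RPLP2L and RPLP2 both encode the stalk protein P2, which helps to recruit translation factors to the large subunit, and RPLP2L made 86.38%, 84.72% and 84.73% of their sum. Of the other stalk genes, RPLP0, the base of the stalk, averaged 1.66 ± 0.105 UMIs per 10000 and RPLP1 averaged 1.04 ± 0.107 (SD, n = 3). The mRNA of RPLP2L was thus at 5.53, 4.69 and 7.07, above that of its stalk partners in each batch.

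Splits were less one-sided for the remaining pairs. RPS27.1 made 70.60%, 70.63% and 71.76% of its pair with RPS27.2. RPL22 made 59.54%, 57.78% and 54.85% of its pair with RPL22L1. RPL7 made 41.84%, 40.78% and 48.86% of the sum with RPL7L1, whose yeast relative Rlp7 works in the assembly of the large subunit and is no part of the finished ribosome. RPL7L1 stood at 7.29, 6.78 and 7.09 UMIs per 10000, above RPL7 with 5.24, 4.67 and 6.78.

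The summed level of the family differed between batches. No test was made, a batch being a single sample. The members held 4.35% of the UMIs of an average cell in batch 1, 3.95% in batch 2 and 4.87% in batch 3 (mean 4.39% ± 0.461, SD of the 3 batch means). Of the 80 members 59 were highest in batch 3 and 60 were lowest in batch 2. Over the 8300 genes found in 5% or more of kept cells, 21.4% were highest in batch 3 and 25.2% were lowest in batch 2. Median depth was lowest in batch 3, and its part in the difference was not tested. Among cells with 30000 to 50000 UMIs (76 or more cells per batch) the means were 4.42%, 4.01% and 4.77%.

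Single members followed the batches to different degrees, with a median ratio of 1.24 between a member's highest and lowest batch. The ratio exceeded 1.5 for 7 members. RPL35 reached 0.493 UMIs per 10000 in batch 3 against 0.295 in batch 2, a ratio of 1.67. RPL14 had 5.92, 4.37 and 7.19 in batches 1, 2 and 3, a ratio of 1.64. The other members over 1.5 were RPL27A (1.54, highest in batch 2), RPL37 (1.53, highest in batch 1), RPLP2L (1.51) and RPLP2 (1.51), the P2 genes both highest in batch 3, and RPS13, barely over 1.5 and highest in batch 3. RPL27A, RPL37 and RPL35 never reached 0.5 UMIs per 10000, so their ratios rest on low levels. The most even members were RPS28 (ratio 1.02) and RPL10 (ratio 1.03).

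Plates within batch 1 differed as much as the batches did. The mean share was 4.25% on plate 5, 3.83% on plate 6, 4.52% on plate 7 and 4.77% on plate 8 (82, 87, 86 and 92 cells). Of 79 members, RPS8B being left out, 54 were lowest on plate 6 and 51 were highest on plate 8. The share of all genes lowest or highest on these plates was not computed. Whether these counts are particular to the family is therefore not known. RPS2, a small subunit protein at the mRNA entry channel, had the largest ratio between plates of the 79 (2.22), with 6.34, 4.74, 9.50 and 10.53 UMIs per 10000 on plates 5, 6, 7 and 8. RPS20 hardly moved, with 24.87, 24.23, 23.80 and 24.81. What the plates shared other than the batch is not in the labels, and its part was not tested.

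**Figure D2:**
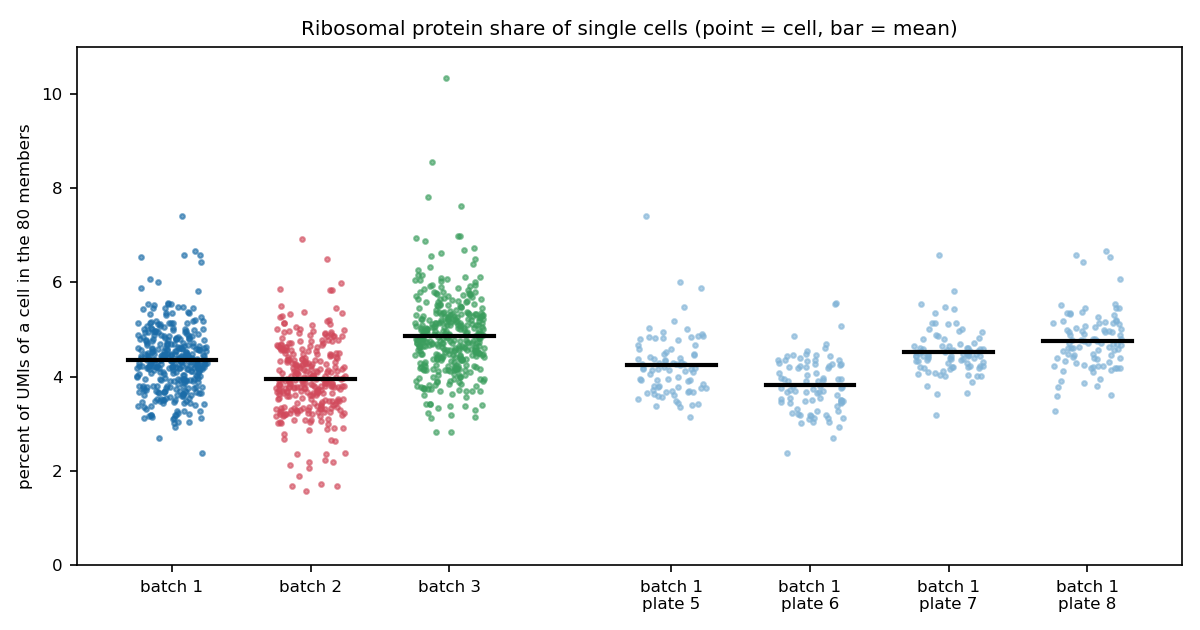
Percent of the UMIs of a cell that fell in the 80 members, for each kept cell by batch (left) and for the plates of batch 1 (right), with bars at the means. Means were 4.35%, 3.95% and 4.87% in batches 1, 2 and 3, and cells ranged between 1.58% and 10.4%.

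Cells of 1 batch also differed in their share by more than counting of UMIs gives. The SD over cells was 0.689, 0.789 and 0.846 percentage points in batches 1, 2 and 3, against 0.0940, 0.0978 and 0.121 for counting alone, which is 53.7, 65.1 and 48.9 times in variance. The share of a cell ranged between 1.58% and 10.4%. Of the 10 cells with the highest share 8 were in batch 3, and the 10 with the lowest share were all in batch 2. The highest, at 10.4%, was a TA-negative cell of batch 3 with 14568 UMIs and 2060 detected genes, and 70 members were found in it. The lowest, at 1.58%, had 29736 UMIs, 3631 detected genes and 53 members. Both lay at the edge of the cells of their batch.

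Depth and the share were related most closely in batch 3. The Spearman correlation of the share with the total was -0.04, 0.02 and -0.17 in batches 1, 2 and 3, and with the number of detected genes it was -0.15, -0.05 and -0.36. In batch 3 the 1 in 3 cells with the lowest totals had a mean share of 5.13%, against 4.73% in the 1 in 3 with the highest. Pooled over the cells of a batch, the subunits kept nearly the same proportion in each batch. The large subunit genes summed to 1.18, 1.19 and 1.18 times the small subunit genes. Over cells, the large and small subunit shares correlated at 0.75, 0.77 and 0.73 within batches (Spearman, description only, with the total UMIs as a common denominator).

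Spread over cells was smallest for the most abundant members. The coefficient of variation of the level over cells, after the counting part was removed, was 0.265 for RPL11, 0.267 for RPS20 and 0.284 for RPS9. It was 0.364 for RPL39 and 0.373 for RPS19, a small subunit protein whose loss causes Diamond-Blackfan anaemia in humans. RPS2 was more variable than members of like level, at 0.587. The lowest 10% of cells had 2.60, 0.733 and 4.00 UMIs per 10000 of RPS2 or less in batches 1, 2 and 3, and the highest 10% had 13.8, 13.2 and 16.6 or more. These bounds were furthest apart, as a ratio, in batch 2. Values were highest for low members, with 2.12 for RPL27, 2.21 for RPL27A and 3.79 for RPS8B, the last found in 6.9% of cells. Only the sampling of UMIs was removed, so other technical noise remains in these values and was not measured.

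The library tag has 5 random bases of 4 kinds each, which sets an upper limit on the number of different tags that a gene can show in a cell, and a count near that limit would be compressed. No member came near it. The highest member count was 399, for RPL11 in batch 1, which is 38.96% of the possible tags. None of the 80000 pairs of member and cell exceeded 50% of the tags, whereas 841 counts of 13 other genes did, up to a count of 975 (95.2% of the tags) in a gene known by a clone name. Counts over 25% of the tags numbered 35, of which 26 were RPL11, 7 RPS20 and 2 RPS9. Counts over 10% numbered 3077, in 44 members.

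Tags shared by chance still lower such counts somewhat. With the expected number of molecules for a given number of tags, 8.14% of RPL11 molecules, 7.65% of RPS20 and 5.91% of RPS9 molecules would be uncounted, and 3.47% for the members together, against 3.92% over all genes. In the deepest 10% of cells the value for RPL11 was 13.6% in batch 1 and 9.11% in batch 3. EEF1A1L1, a translation elongation factor gene at 66.71, 59.75 and 84.80 UMIs per 10000, would have lost 20.8%. Corrected in this way, the mean share of the members was 4.37% in place of 4.39%.

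**Figure D3:**
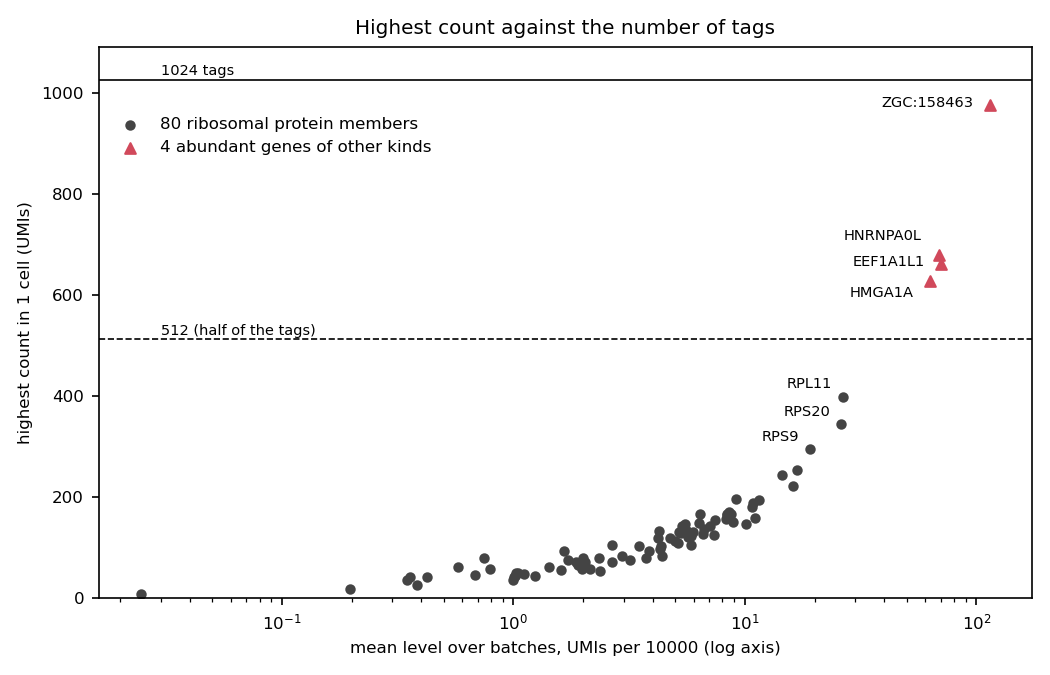
Highest count in any kept cell (UMIs) against mean level (UMIs per 10000, log axis) for the 80 members and for 4 of the 13 genes with counts over 50% of the tags. Lines mark 50% and all of the possible tags. The highest member, RPL11 at 399, lies under both lines, and the highest gene of another kind reaches 975.

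Cell-to-cell covariation among members was positive but weak. It was measured within a batch as the Spearman correlation of log2(1 + UMIs per 10000) between members, after regression on the total and the number of detected genes, for the 79 members found in 10% or more of cells. Mean pairwise r was 0.0708, 0.0711 and 0.0660 in batches 1, 2 and 3 (mean 0.0693 ± 0.00286, SD, n = 3), and 83.84%, 78.87% and 84.45% of pairs were positive. The mean was 0.0639 among large subunit genes, 0.0755 among small subunit genes and 0.0712 between the subunits. Cells share libraries, depth and a common total, so these are descriptions, and single pairs in sparse counts carry little weight. Within plates of batch 1 mean r was 0.0589, 0.0603, 0.0298 and 0.0468 on plates 5 to 8, each below the value of the whole batch.

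Other translation lists had lower mean r, at levels that also differed. The highest of them was 0.0436 for 7 other TOP mRNAs (0.0388, 0.0329 and 0.0590 in batches 1, 2 and 3). Mean r was 0.0378 for 8 elongation factors, 0.0317 for 59 mitochondrial ribosomal proteins, 0.0193 for 33 ribosome biogenesis genes and 0.00802 for 47 initiation factors. For the 3 partners it was -0.0076. Median levels are over all genes found of a list, which include some too sparse for r. They were 1.89 UMIs per 10000 for 52 initiation factors and 0.499 for 62 mitochondrial ribosomal proteins, against 4.35 for the 80 members. For 8 other TOP mRNAs the median was 6.63 and for the 3 partners 6.05. Markers of the enveloping layer had 0.316 and those of the margin 0.300. Germ cell markers had 0.0874 (-0.0437, 0.150 and 0.156 in batches 1, 2 and 3), and p53 and stress genes had 0.0342. A first principal component held 9.78%, 10.8% and 9.04% of the variance of the members, and a second held 2.83%, 4.02% and 2.48%.

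RPS19 was the member most alike the others, with a mean r of 0.158, 0.170 and 0.130 in batches 1, 2 and 3. RPS2 (mean 0.135), RPL39 (0.132), RPLP2L (0.127) and RPL7A (0.119) followed. The closest pair was RPL39 with RPS19, at 0.302, 0.494 and 0.284. RPL39 with RPS2 had 0.306, 0.435 and 0.328, and RPLP2L with RPS19 had 0.273, 0.550 and 0.240. Within plates 5, 6, 7 and 8 the first of these pairs had 0.137, 0.263, 0.268 and 0.172, all below the value of batch 1. The second had 0.149, 0.346, 0.187 and 0.125, above the value of batch 1 on plate 6. The third had 0.0718, 0.238, -0.0484 and 0.246, all below the value of batch 1. RPS19 with RPS2, at 0.392 in batch 1, had 0.167, 0.247, 0.385 and 0.0643. RPL7A with RPS19, at 0.345 in batch 1, had 0.206, 0.382, 0.214 and 0.260.

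The lowest mean r belonged to RPS7 (0.0065), RPL27 (0.0078), RPL37 (0.0133), RPS26L (0.0177) and RPL27A (0.0256), all under 1 UMI per 10000. Across members mean r moved with level (Spearman 0.62, over 79 genes). Outlying against this were abundant members with low values, namely RPS28 (0.0361), RPL3 (0.0379) and RPL12 (0.0382). RPL3 is a protein near the peptidyl transferase centre and RPL12 sits at the stalk base. RPS18 was high for its level of 2.14 UMIs per 10000, with 0.102. Those 4 were singled out after their values were seen. Among the 26 members between 4 and 8 UMIs per 10000, mean r had a median of 0.083 and reached 0.127.

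**Figure D4:**
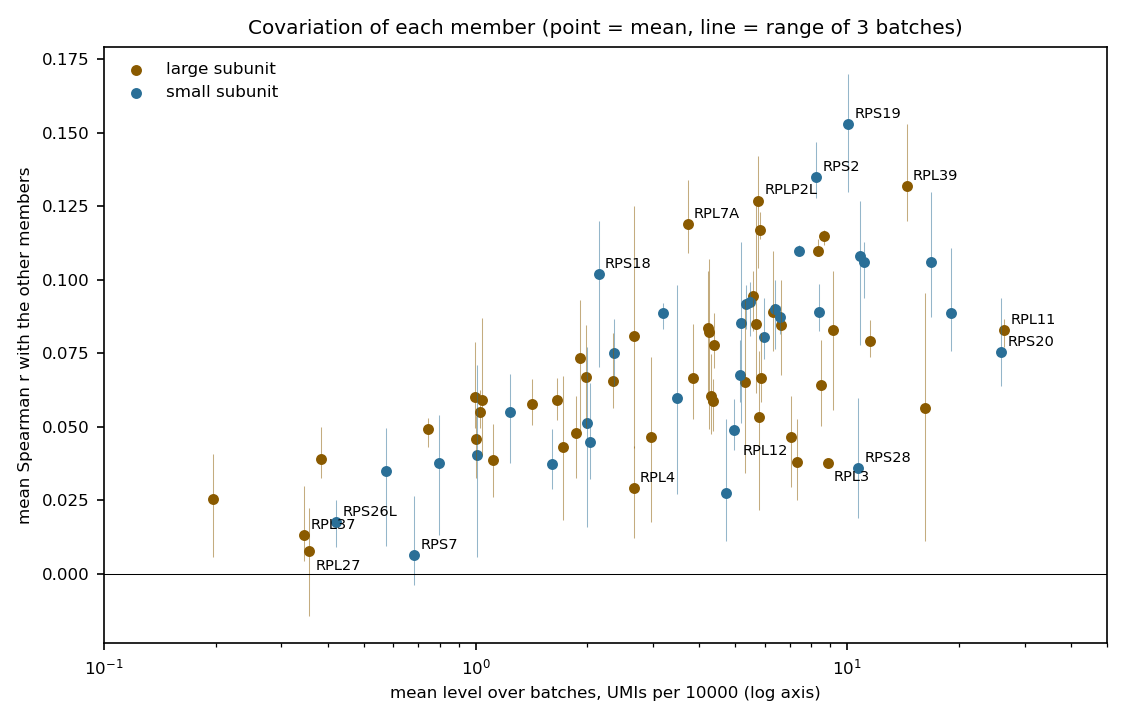
Mean Spearman r of each of 79 members with the others against its mean level (UMIs per 10000, log axis), with the range of the 3 batches as a line. Values rise with level, RPS19 is highest at 0.153, and RPS28 and RPL3 lie low for their level at 0.0361 and 0.0379.

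The level of each gene was also set against the summed members, each member being left out of its own sum. Of 6978 genes found in 10% or more of cells, 30 of the 50 and 46 of the 100 with the highest mean r were members. The median was 0.217 for members and 0.0004 for other genes, and 74 of 79 members were positive in all 3 batches, against 19% of all genes. Members and other genes were not matched on level. Mean r between members moved with level (Spearman 0.62), and the part of level in this contrast was not tested. Genes known by a clone name were skipped, 1 of which ranked above those named here. The nearest gene with a symbol of its own outside the family was EEF1A1L1, with 0.323, 0.290 and 0.556 in batches 1, 2 and 3. It was followed by PSMB7, a proteasome subunit (mean 0.368), ATPIF1A, an inhibitor of the mitochondrial ATP synthase (0.356), and the nuclear receptor NR5A1B (0.350). RPSA, a small subunit protein outside the rule, had 0.254, 0.324 and 0.298. The most negative were GLULB, a glutamine synthetase, with -0.475, -0.224 and -0.222, and cyclin E gene CCNE1, with -0.176, -0.345 and -0.334. This ranking was added after the data were seen and carries no test. It was made over whole batches, so differences between the plates of batch 1 enter it. No such ranking was made within plates.

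Mesoderm forms at the margin of the blastoderm under the T-box gene TA, and cells with at least 1 UMI of TA were compared with cells with none. TA-positive cells made 54.18%, 43.92% and 65.27% of the kept cells of batches 1, 2 and 3, and TA-negative cells the rest. No ribosomal protein gene passed the test between these classes. None of the 80 members was called by edgeR (quasi-likelihood test on 6 sums, batch as a block, Benjamini-Hochberg adjusted p under 0.05), and DESeq2 and limma called none either. The background was 1.47% of the 8299 genes tested, with 100 (1.2%) higher and 22 (0.265%) lower in TA-positive cells. Without batch 3 these were 66 and 12. At an unadjusted p under 0.05 there was 1 member, 1.25% of the family, against 8.24% of all genes.

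The median log2 difference of the members was 0.01, against -0.00 for all genes, with a median SE of 0.07. It was 0.05, 0.01 and -0.02 within batches 1, 2 and 3. The 55 members at 2 or more UMIs per 10000 lay between -0.14 and 0.11. All members lay between -0.54 and 0.55, and 54 of the 80 were within 0.1 of zero. Higher in all 3 batches were 13 members (16.25%, against 15.8% of all genes), and lower in all 3 were 11 (13.75%, against 12.8%).

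RPL37 had the smallest p. It had 0.3395, 0.2697 and 0.2699 UMIs per 10000 in TA-positive cells of batches 1, 2 and 3, against 0.5486, 0.2942 and 0.4437 in TA-negative cells. It was lower in each batch though the classes overlapped, with a log2 difference of -0.54 (SE 0.21) and an adjusted p of 0.450 by edgeR. RPL11 had 26.07, 23.98 and 27.69 in TA-positive cells, against 26.12, 25.15 and 30.94 in TA-negative cells (log2 difference -0.10, SE 0.05, edgeR adjusted p = 0.623). The classes did not overlap for 2 members, 2.5% of the family against 7.3% of all genes. RPL5A had 0.838, 0.882 and 0.736 in TA-positive cells, against 0.650, 0.684 and 0.653 in TA-negative cells. RPL10, a protein of the large subunit, had 1.842, 1.853 and 1.703 in TA-positive cells, against 1.627, 1.620 and 1.689 in TA-negative cells. Neither passed edgeR (adjusted p = 0.628 and 0.856), and both were named for their lack of overlap.

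The summed share was 4.39%, 3.96% and 4.82% in TA-positive cells of batches 1, 2 and 3, against 4.29%, 3.94% and 4.95% in TA-negative cells. The difference was 0.101, 0.026 and -0.126 percentage points, so its sign was not shared (exact two-sided sign-flip permutation p = 1.0, where 3 batches cannot give less than 0.25). Median totals were 57802, 56884 and 39168 UMIs in TA-positive cells and 57022, 55073.5 and 31977 in TA-negative cells. Median numbers of detected genes were 3780.5, 3546.5 and 3283 in TA-positive cells and 3544, 3160 and 2993.5 in TA-negative cells. Most of the kept wells with over 5000 detected genes were TA-positive. Of the margin markers 8 of 8 tested were higher in TA-positive cells, and with TA included the list summed to 15.7 to 24.9 UMIs per 10000 in TA-positive cells, against 4.03 to 5.73 in TA-negative cells. Of 12 enveloping layer markers 1, KRT18, was called higher (1.29-fold) by edgeR. Of the same list 11 had a positive log2 difference (median 0.30) and 4 had an unadjusted p under 0.05. Its summed level was 14.1, 13.1 and 10.7 UMIs per 10000 in TA-positive cells, against 11.3, 9.08 and 9.63 in TA-negative cells.

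Translation genes outside the family were set beside the members. By edgeR none of 33 ribosome biogenesis genes, 51 initiation factors, 9 elongation factors, 60 mitochondrial ribosomal proteins, 3 partners and 7 other TOP mRNAs tested was called between TA-positive and TA-negative cells, and DESeq2 and limma called none. At an unadjusted p under 0.05 edgeR gave 3, 3, 1, 4, 0 and 1 of these lists in the same order. NPM1A, a nucleolar protein of ribosome assembly, had 31.95, 27.48 and 33.81 UMIs per 10000 in TA-positive cells, against 32.95, 29.10 and 34.97 in TA-negative cells. EEF1A1L1 had 66.68, 60.11 and 83.77, against 66.74, 59.47 and 87.09.

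An epithelial sheet of keratin-producing cells, the enveloping layer, covers the blastoderm. The 1 in 10 cells of each batch with the highest summed KRT4, KRT5, KRT8, KRT18 and CYT1, here called keratin-rich, were compared with all other cells of their batch. They numbered 35, 30 and 36 in batches 1, 2 and 3. A class taken from such a score is a range and not a cell type. Again no member was called by edgeR, against a background of 1.68% of 8295 genes (1.54% higher and 0.133% lower in keratin-rich cells). With other cells matched to keratin-rich cells on total UMIs, 49 genes were higher and none lower. At an unadjusted p under 0.05 there were 2 members, RPS2 and RPS21, 2.5% against 9.05% of all genes. DESeq2 called 1 member, RPS2, against 2.17% of all genes tested. With limma no member was called, against 1.48% of all genes tested.

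RPS2 stood at 5.476, 5.893 and 7.271 UMIs per 10000 in keratin-rich cells of batches 1, 2 and 3, against 8.211, 7.253 and 9.933 in other cells. It was lower in keratin-rich cells of each batch, though the classes overlapped slightly between batches (7.271 against 7.253). The log2 difference was -0.41 (SE 0.11), with an edgeR adjusted p of 0.0903. It passed with DESeq2 (adjusted p = 0.0444) and without the detection filter (0.00963, edgeR). With library sizes from the genes outside the family and TMM factors left out, RPS2 passed too (0.0333, edgeR). It also passed without batch 2 (0.00505, edgeR). In the other 14 of the 18 alternatives it did not pass. The edgeR adjusted p was 0.467 without batch 1, 0.388 without batch 3 and 0.209 with cells matched on total UMIs. With limma the adjusted p was 0.111. By plate of batch 1, RPS2 was 6.57, 3.84, 7.57 and 7.04 in keratin-rich cells of plates 5, 6, 7 and 8, against 6.30, 4.91, 9.53 and 10.8 in other cells. These plates held 11, 15, 2 and 7 keratin-rich cells, and RPS2 was lower in keratin-rich cells on plates 6, 7 and 8 but not on plate 5. The part of the plates in the result was not tested. Without plate 6 the log2 difference was -0.36 with an edgeR adjusted p of 0.228, an alternative added after the data were seen.

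RPS21, a small subunit protein, had 5.054, 4.173 and 5.329 UMIs per 10000 in keratin-rich cells, against 5.861, 5.681 and 6.735 in other cells. The classes did not overlap, with a log2 difference of -0.29 (SE 0.12) and an edgeR adjusted p of 0.441. Lack of overlap was seen in 3 members, 3.75% against 14.3% of all genes, the other two being RPL27 and RPS14. RPL27 had 0.417, 0.563 and 0.567 in keratin-rich cells, against 0.339, 0.291 and 0.393 in other cells (log2 difference 0.63, SE 0.31, edgeR adjusted p = 0.566). RPS14 had 1.781, 1.979 and 2.037, against 1.700, 1.470 and 1.559 (log2 difference 0.33, SE 0.17, edgeR adjusted p = 0.599). RPL27 and RPS14 thus had higher values and RPS21 lower values in keratin-rich cells, none past the threshold.

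Over the family the median log2 difference between keratin-rich and other cells was -0.01, against -0.04 for all genes, with a median SE of 0.13. Within batches 1, 2 and 3 it was 0.05, -0.12 and -0.03. The 56 members at 2 or more UMIs per 10000 lay between -0.41 (RPS2) and 0.23. Higher in all 3 batches were 8 members (10.0%, against 13.8% of all genes) and lower in all 3 were 19 (23.75%, against 18.4%). RPL11 had 27.61, 20.97 and 28.84 UMIs per 10000 in keratin-rich cells, against 25.94, 24.97 and 28.68 in other cells, a log2 difference of -0.01 (SE 0.10).

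The summed share was 4.44%, 3.79% and 4.61% in keratin-rich cells of batches 1, 2 and 3, against 4.34%, 3.97% and 4.90% in other cells. The differences of 0.104, -0.179 and -0.282 percentage points did not share a sign (exact two-sided sign-flip permutation p = 0.5). Within batch 1, keratin-rich cells of plates 5, 6, 7 and 8 had shares of 4.776%, 4.047%, 4.429% and 4.755%. Other cells of these plates had 4.164%, 3.786%, 4.518% and 4.767%, so the direction differed between plates. The part of the plates was not tested. Median totals were 53132, 37088 and 34836.5 UMIs in keratin-rich cells and 57955, 56454 and 35863 in other cells. The 7 enveloping layer markers tested were all higher in keratin-rich cells, and the 12 markers summed to 41.6 to 67.4 UMIs per 10000 in keratin-rich cells, class genes included, against 5.55 to 8.54 in other cells. Of 9 margin markers edgeR called 1 higher, and 7 had a positive log2 difference (median 0.17). TA, a gene of this list, was 1.69-fold higher. In keratin-rich cells of batches 1, 2 and 3 the list summed to 13.05, 16.1 and 15.68 UMIs per 10000. In other cells it summed to 10.31, 11.4 and 19.25, so the direction was not shared by the batches.

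**Figure D5:**
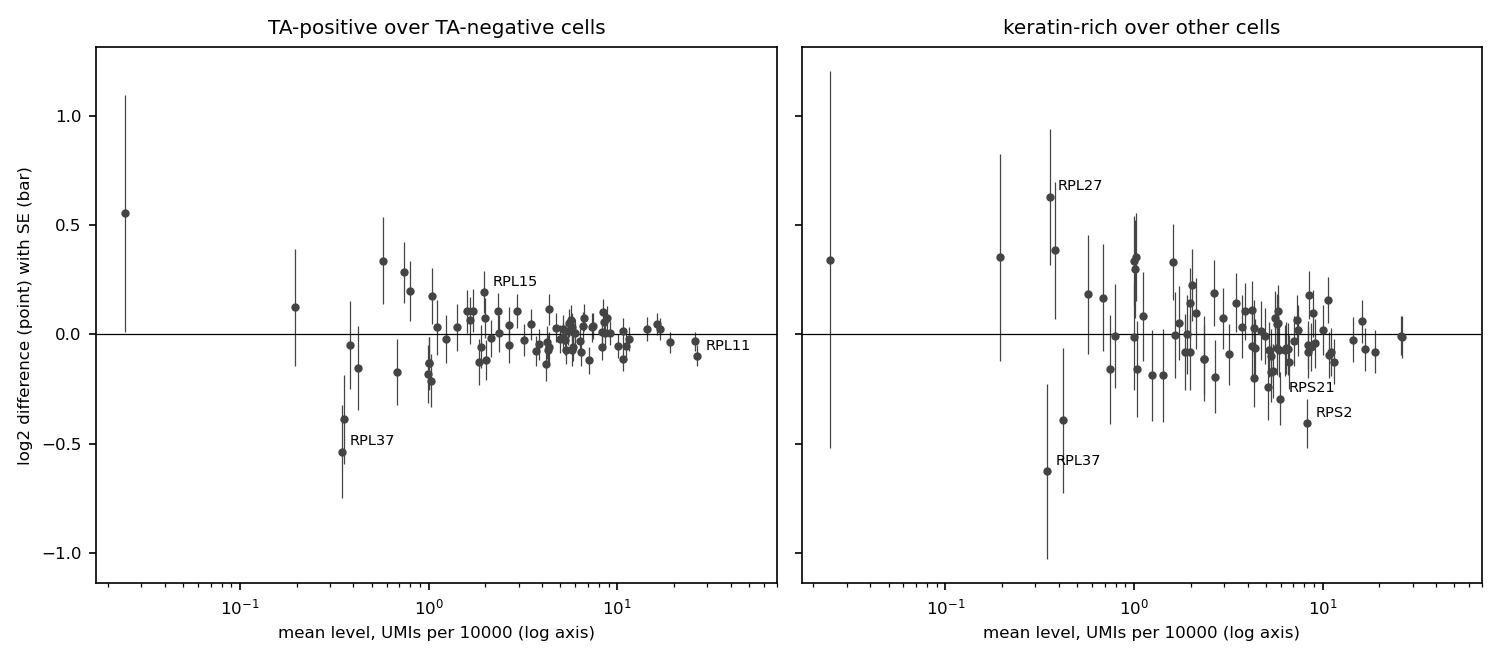
Log2 difference of each member with its SE, TA-positive over TA-negative cells (left) and keratin-rich over other cells (right), against mean level (UMIs per 10000, log axis). Points close on zero as the level rises, with RPS2 at -0.41 the lowest abundant member in keratin-rich cells.

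Of the other translation genes, 1 of 9 elongation factors was called in keratin-rich cells. EEF1A1L2, a gene of elongation factor 1A, stood at 6.693, 8.666 and 6.128 UMIs per 10000 in keratin-rich cells, against 3.770, 5.711 and 5.243 in other cells, 1.51-fold higher (edgeR adjusted p = 0.0143). None of 33 ribosome biogenesis genes, 51 initiation factors, 60 mitochondrial ribosomal proteins, 3 partners and 7 other TOP mRNAs was called by edgeR, DESeq2 or limma. At an unadjusted p under 0.05 edgeR gave 1, 2, 4, 0 and 1 of these in the same order. RPS27.1 made 67.9% ± 1.90 of its pair with RPS27.2 in keratin-rich cells and 71.3% ± 0.925 in other cells (SD, n = 3). This pair is 1 of several compared, and the difference was not tested. RPL22 made 60.3% ± 5.94 of its pair with RPL22L1 in keratin-rich cells and 57.1% ± 2.94 in other cells, also not tested.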

How the data were processed

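The starting values are UMI counts per gene and well as the authors deposited them (13902 genes, 1152 wells). The scaling and filters applied to them here are given above and in the next paragraph. Of the authors' steps, the submitters' processing notes give the aligner Bowtie and the build Zv9. The handling of reads with several matches is not given in the sources used here. Per the labels' protocols, 5′ ends were amplified, strand was kept and each tag has 5 random bases. No sequence is printed.

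Wells with 2000 or more detected genes were kept. For each comparison the counts of a class were added up within a batch. The 6 sums went into edgeR 4.0.16 under R 4.3.3, with TMM factors, a term for batch and the quasi-likelihood test. Genes needed a UMI in 5% or more of the compared cells, and calls an adjusted p under 0.05 (Benjamini-Hochberg, over all genes tested). SEs are the log2 difference divided by the square root of F. DESeq2 1.42.0 and limma 3.58.1 (on log2(mean level + 0.01), each cell weighing the same) were alternatives. The labels name no clutch, so the batch stands in as replicate. Shifts shared by both classes of a batch are taken up by the batch term. The p-values therefore rest on the unevenness of the tested-to-reference difference from 1 batch to the next, which may be technical. Classes are paired by batch, since both come from the same wells' batch. Uncounted molecules were computed from the share of all possible tags that a gene showed in a cell, with tags drawn at equal chance. No doublet caller was run on these hand-picked cells.

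Tested on simulated sums, the TA fit (8299 genes tested) recovered 38% of genes changed 1.5-fold and 60% of those changed 2-fold. The keratin fit (8295 genes tested) recovered 10% and 34%. The changed genes were drawn at random from all genes tested, so these rates do not describe the members by themselves. By symbol, 79 of the 80 members matched RefSeq. Named members are the 10 highest and 5 lowest by level, the 5 with the largest batch ratio, the 5 highest and 5 lowest by covariation, called members and paralogs, and others were chosen after their values were seen. Some genes that this rule or the lists name are not reported here. Members, lists and tests were chosen with earlier results of these data known.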

Additional observations from a re-analysis of the deposited data

How the results depend on the processing

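Shares here are of the genes tested. For TA, called genes made 1.47%, against 1.33% of 13881 without a detection filter (a larger number of genes) and 0.94% to 1.49% with a batch left out, lowest without batch 3. Without the replicate block, so with the pairing of classes by batch ignored, they made 0.675% for TA and 1.22% for keratin. No member was called for TA under any of the 16 alternatives. For keratin, called genes made 1.68%, against 0.593% of 8260 with cells matched on total UMIs, where fewer cells were used, and 1.6% to 1.68% with a batch left out. The number of called members was 1, RPS2, with DESeq2, without a detection filter, and with library sizes from genes outside the family and no TMM factors. These settings called 2.17%, 1.36% and 1.74% of all genes tested, in the same order. With a batch left out the number of called members was 0 to 1. It was 1 without batch 2, where 1.6% of all genes tested were called. The other 14 of the 18 alternatives called no member. Over all 18 the log2 difference of RPS2 lay between -0.53 and -0.31. The median log2 difference of the members for keratin was -0.11 without batch 1 and 0.06 without batch 2. Mean covariation was 0.0740 in cells with 3000 or more detected genes and 0.0647 without wells over 5000 (0.0684 to 0.0709 with a batch left out). The share was 4.15% to 4.61% with a batch left out. The cause of these shifts was not tested. The wells over 5000, the alike wells and plate 6 were examined after the data were seen. Counting the alike wells once and correcting tags changed no call of a member. Depth limits the 11 members under 1 UMI per 10000.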
